A study of Caenorhabditis elegans with 4 samples.

Results

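The F-box A genes of *Caenorhabditis elegans* were examined for occupancy by HPL-2 in chromatin immunoprecipitation followed by sequencing (ChIP-seq). Members were the genes with a symbol made of fbxa- and a number in the RefSeq gene table, which gave 222 genes, 170 protein-coding and 52 pseudogenes, of 21892 protein-coding genes and pseudogenes on the 6 chromosomes. The chromatin came from wild-type N2 worms at the L3 larval stage, males and hermaphrodites together, grown at 20 °C. HPL-2 was precipitated in 2 libraries with SDQ2340, a polyclonal antibody purified from rabbit by affinity, and 2 input libraries of unprecipitated DNA from worms of the same strain and stage were not analysed here. All groups were wild type, so no sample without HPL-2 was compared. Frozen ground worms had been fixed in EGS (20 min) and then in EGS together with formaldehyde (10 min), per the labels' protocols.

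F-box proteins are the substrate receptors of SCF ubiquitin ligases: the F-box binds a Skp1-type adaptor (SKR proteins in the worm), which joins it to a cullin and a RING protein, while the rest of the protein binds the target. F-box A proteins pair the F-box with an FTH domain, named after the germline sex determination protein FOG-2, and form one of the large, fast-changing families of nematodes, with many tandem copies on chromosome arms. HPL-2 is a worm counterpart of heterochromatin protein 1. Its chromodomain binds histone H3 methylated at lysine 9, and the protein is known for repeat-rich arm chromatin and for gene repression.

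The values were 3 deposited peak lists, with 20533 peaks in replicate 1, 16490 in replicate 2 and 23530 in a list for the whole series (the series-level list). The lists do not give read depth, and a gene without a peak in a list is not shown to lack HPL-2. Peaks have coordinates on WS220 and genes on WBcel235, whose positions differ by about 100 bp or less, so positions relative to genes are good to about 150 bp. A gene was called bound when its body plus 500 bp upstream overlapped by at least 1 bp a peak of the series-level list and a peak of each replicate list. The gene table gives no strand, so the rule was applied with the upstream part at either end: a gene that met it both ways was bound, and a gene that met it one way only was called strand-dependent. With 2 libraries of 1 group no test over samples was possible, and all comparisons below are descriptions without a test.

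By this rule a smaller proportion of F-box A genes than of all genes was bound. Most members, like most genes, had no HPL-2 peak on the gene body in any single list. Of the 222 members, 23 (10.4%) were bound, whereas 17.6% of all protein-coding genes and pseudogenes were bound. Another 20 members (9.01%) were strand-dependent, a larger proportion than among all genes (6.35%), and 179 were not bound. Counting strand-dependent genes as bound, 43 members (19.4%) met the rule, against a background of 24%. The proportion of protein-coding members that were bound was 10.6% (18 of 170), against 18.3% of all protein-coding genes. Among pseudogene members it was 9.62% (5 of 52), close to the 10.4% of all pseudogenes. Replicate 1 had a peak on the gene body of 17.1% of members (background 25%), replicate 2 on 14.9% (background 22.9%) and the series-level list on 20.7% (background 29.1%). In 171 members no list had a peak on the gene body. The same count over all genes is not given here, so it is not read as a trait of the family.

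Most members lay in the outer parts of chromosomes, where other genes were bound more often (23.8%) than in centres (7.19%). The nearest coding neighbours of members, described below, were bound less often (16.1%) than other genes of those outer parts. When each chromosome was cut into 3 equal parts, 217 members (97.7%) lay in the outer 2 parts, the arms, which held 63.8% of all genes. On the arms 10.6% of members were bound, against 23.5% of all genes there and 23.8% of those that were no members. With strand-dependent genes the values were 19.8% of members and 30.9% of all genes. On chromosome III, 0 of 5 members on the right arm were bound, against 35.9% of other genes there. None of the 5 members in chromosome centres was bound, against 7.19% of other genes in centres. With only 5 members in each, these counts of 0 say little. Members had a lower proportion bound than other genes in 15 of the 15 chromosome parts that held any member, 8 of which held 5 members or more. The remaining parts held fewer than 5 members each, so that no member was bound there says little. With strand-dependent genes counted, members were above other genes on the right arms of chromosomes I (45.5% and 39.2%) and IV (25% and 22.6%). In all other parts they were below.

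**Figure D1:**
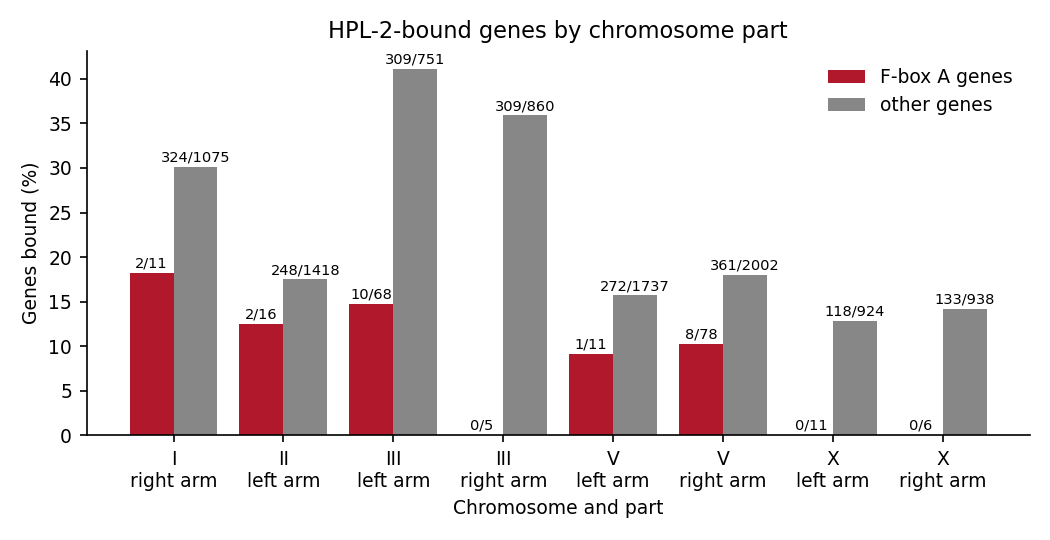
Percent of genes bound by HPL-2 (linear axis from 0) for F-box A genes (red) and all other genes (grey) in the 8 chromosome parts with 5 or more members; labels give bound genes over all genes. On the left arm of chromosome III the values are 14.7% of members and 41.1% of other genes, no member is bound on its right arm or on X, and the red bar is the lower one in every part.

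Chromosomes III and V held most of the family. The left arm of chromosome III carried 68 members, of which 10 (14.7%) were bound, while 41.1% of its other genes were. On the right arm of chromosome V, 8 of 78 members (10.3%) were bound, against 18.0% of other genes. Chromosome II had 2 bound members of 16 on its left arm (12.5%, other genes 17.5%) and chromosome I had 2 of 11 on its right arm (18.2%, other genes 30.1%). No member was bound on chromosome IV (6 members) or on the X chromosome (17 members), where 17.7% and 10.9% of other genes were bound. The few members on these chromosomes limit what such counts show. With strand-dependent genes the values were 16.7% of members and 24% of other genes on IV, and 11.8% and 15.9% on X.

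F-box A genes are short, and a short gene offers fewer bases to a peak, so genes were also set side by side in 4 length classes, each with an equal number of all genes. Members had a median gene body of 1631 bp, and all genes together one of 1922 bp. On the arms, no member of the shortest class (up to 1157 bp) was bound out of 34, against 9.56% of other genes. In the second class (up to 1922 bp) 8.41% of 107 members and 12.6% of other genes were bound. The third class (up to 3439 bp) gave 16.4% of 61 members and 20.8% of other genes, and the longest class 26.7% of 15 members and 50.0% of other genes. Lengths still differed within the longest class, where medians were 4241 bp for members and 5683 bp for other genes. In the shortest class members were the longer ones (988 and 730 bp). On the arms the proportion bound was thus lower among members in each of the 4 length classes. Over the whole genome, this did not hold in every class: in the third class 16.4% of members and 14.3% of other genes were bound, and the second class gave 8.11% and 9.20%. With strand-dependent genes, members were above other genes in the second class (16.2% and 14.7%) and the third (24.6% and 20.9%). Per base, 4.06% of the summed gene bodies of arm members lay in series-level peaks, against 13.2% for other arm genes. The same values were 3.09% and 11.3% in replicate 1, and 3.13% and 7.99% in replicate 2. These per-base values are not matched for length, and long genes weigh most in them. By arm length class, the series-level values for members and other genes were 0.104% and 8.29%, 3.23% and 7.25%, 5.66% and 9.10%, and 4.34% and 16.0%. Over the whole genome the third class gave 5.66% and 6.53%. In replicate 2 members of that class were above other genes (4.37% and 3.68%), and in the other classes below.

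The genes next to members were occupied at a level between that of the family and that of the arms. The nearest protein-coding gene on either side of each member that was no F-box A gene gave 230 neighbours, with a median gene body of 1656 bp. Of these 16.1% were bound, and 11.8% of their summed bases lay in series-level peaks, against 3.99% for all members. A bound neighbour was present for 11 of the 23 bound members, 11 of the 20 strand-dependent ones and 37 of the 179 that were not bound. A peak in the flank of a member can also lie in the region of its neighbour, so the calls of the pair are not independent. Inside the 10 largest groups of members the gap was not seen: 17 of 114 members (14.9%) and 12 of 81 other genes (14.8%) within the span of these groups were bound.

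Those groups were defined as runs of members no more than 20 kb apart, which sorted the family into 87 groups, 56 of them a single gene. Bound members were found in 9 of the 10 groups with 5 or more members (17 of 114 members), in 2 of the 21 groups with 2 to 4 (2 of 52 members) and as 4 of the 56 single genes. In the series-level list, member bodies had a smaller share of bases in peaks than the sequence between them in 5 of the 10 large groups, a larger share in 4 and no peak at all in 1.

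The largest group held 33 members on the left arm of chromosome III, from fbxa-21 to fbxa-25 over 113 kb. Of its bases 6.63% lay in series-level peaks, 6.43% in replicate 1 peaks and 6.23% in replicate 2 peaks, whereas the whole left arm had 21.7%, 19.4% and 14.5%. Its 7 bound members were fbxa-76, fbxa-77, fbxa-208, fbxa-79, fbxa-80, fbxa-19 and fbxa-15. They lay in a pair of runs, the first from fbxa-76 to fbxa-208 (with fbxa-91 not bound) and the second from fbxa-79 to fbxa-15 (with fbxa-20 not bound). Between these runs, from fbxa-78 to fbxa-75, only fbxa-37 had a series-level peak on its body. None of the 10 other genes in this span was bound.

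**Figure D2:**
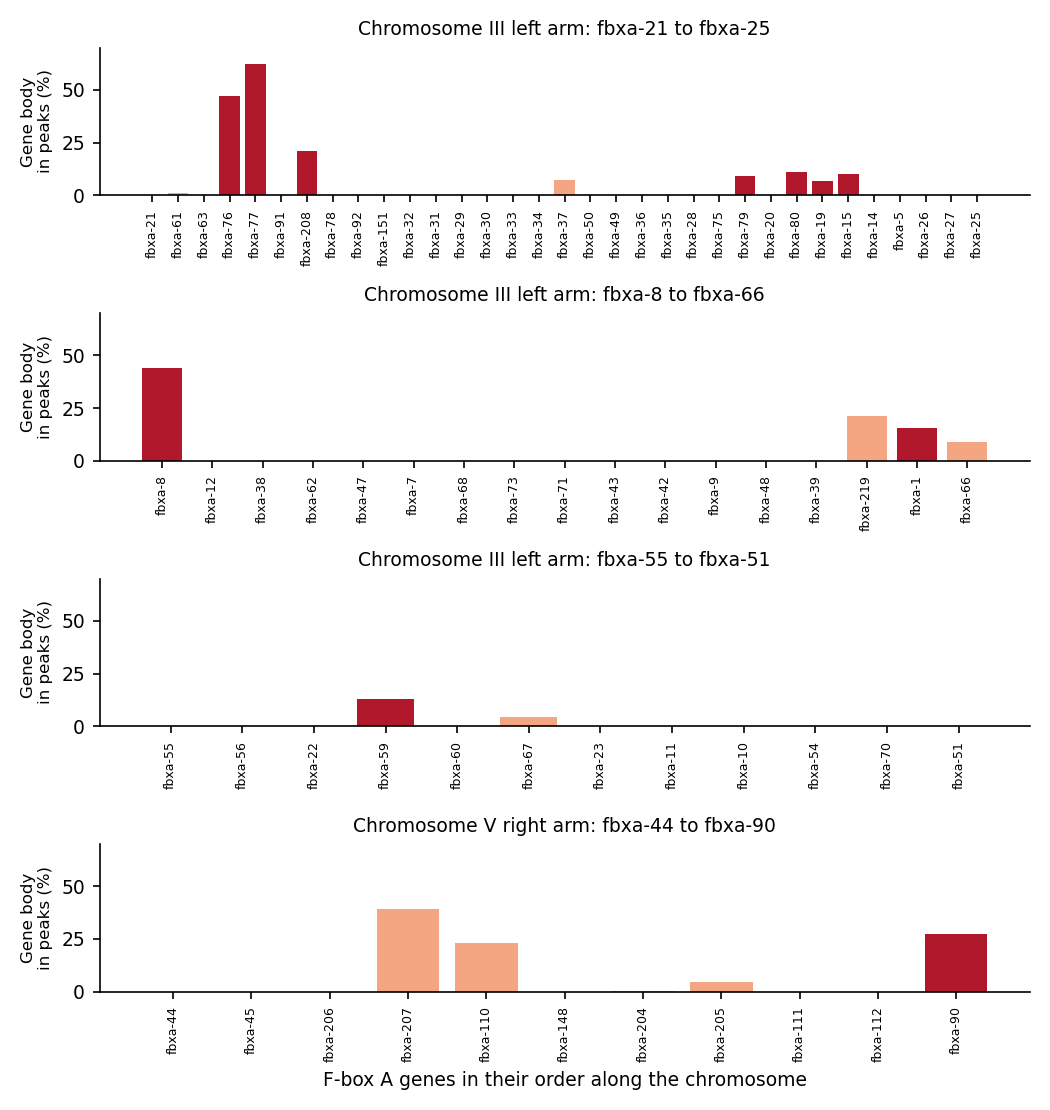
Percent of each gene body in series-level HPL-2 peaks (linear axes) for the 4 largest groups of F-box A genes, in their order along the chromosome; dark red bars are bound members and light bars are members that are strand-dependent or not bound. Peaks cover a few members in each group, with the highest bar at 62.2% for fbxa-77, and most members stand at 0.

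The highest-scoring series-level peaks of the family lay over fbxa-77 and its neighbour fbxa-76. In fbxa-77, 62.2% of the gene body lay in series-level peaks, 59.7% in replicate 1 peaks and 60.4% in replicate 2 peaks. For fbxa-76 the shares were 47.2%, 45.5% and 47.7% in the same order. Both replicates thus gave nearly the same extent. The peaks ran on chromosome III from 1248321 to 1249049 over fbxa-76, and from 1249302 to 1250622 (1321 bp) and 1251272 to 1251603 over fbxa-77 (WS220). The deposited score of the fbxa-77 peaks reached 221.9 in replicate 2, above 99.6% of that list, and the fbxa-76 peak scored above 99.5%. In replicate 1 they scored above 97.5% and 98.2% of peaks. The score is the peak caller's own, its scale is not given in the sources used here, and it was used only to rank peaks within a list.

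The other members named for their scores were fbxa-208, fbxa-79 and fbxa-72. A pair of series-level peaks of 370 and 333 bp lay inside fbxa-208, on chromosome III from 1258650 to 1259019 and from 1259638 to 1259970; the replicate 2 score there was above 99.2% of its list and the replicate 1 score above 94.4%. A narrow peak of 230 bp lay inside fbxa-79, whose score was above 97.0% of peaks in replicate 2 and 73.7% in replicate 1. On the left arm of chromosome V, fbxa-72, with no other member within 20 kb, had 1 peak from 676041 to 676416 that covered 20.1% of its body in the series-level list and 19.1% and 18.3% in replicates 1 and 2. The order of scores therefore differed from the order of shares, since narrow peaks such as that of fbxa-79 (8.92% of the body) could score high.

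Members with a large share of their body in peaks included 3 pseudogenes. The first, fbxa-8 on chromosome III, had 1 peak of 1026 bp from 2218296 to 2219321 that held 44.2% of the gene, with 44.5% in replicate 1 and 41.3% in replicate 2. At fbxa-175 on the right arm of chromosome V the replicates differed: 42.2% lay in series-level peaks, 12.9% in replicate 1 peaks and 41.5% in replicate 2 peaks. For fbxa-93 on the right arm of chromosome I the order was the opposite, with 42.0%, 35.9% and 11.8%. The gene W09G3.1 also overlaps all 3 series-level peaks on fbxa-93, so these peaks cannot be assigned to one of the 2 genes, and the peak on fbxa-59 likewise overlaps T12B5.9.

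The protein-coding members next in share were fbxa-90, fbxa-139 and fbxa-24. The shares of fbxa-90, at the end of a group on the right arm of chromosome V, were 27.6% in the series-level list and 22.7% and 13.8% in replicates 1 and 2. A merged region of peaks (joined over gaps of up to 1000 bp) at this gene also reached efl-1, which encodes an E2F transcription factor. The single peak of fbxa-139 on the same arm gave 25.7%, 21.8% and 20.3%. On chromosome II, fbxa-24 had 3 series-level peaks, and 24.9% of its body in peaks, with 23.5% in replicate 1 and 11.1% in replicate 2. Replicate 2 was thus the lower library at fbxa-90 and fbxa-24, and the replicates were close at fbxa-139.

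Across the 23 bound members the series-level share ran from 6.67% (fbxa-19) to 62.2% with a median of 17.0%, and exceeded 10% in 20 of them. The median was 14.5% in replicate 1 and 13.8% in replicate 2, and replicate 1 had the larger share in 10 members and replicate 2 in 13. Shares in the 2 replicates ranked alike (Spearman's rho 0.71 over 23 members of 1 pair of libraries, a description, since members were required to have a peak in both). Bound members had a median gene body of 2104 bp, against 1568 bp for those not bound. All 23 had a peak on the gene body itself in each list.

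**Figure D3:**
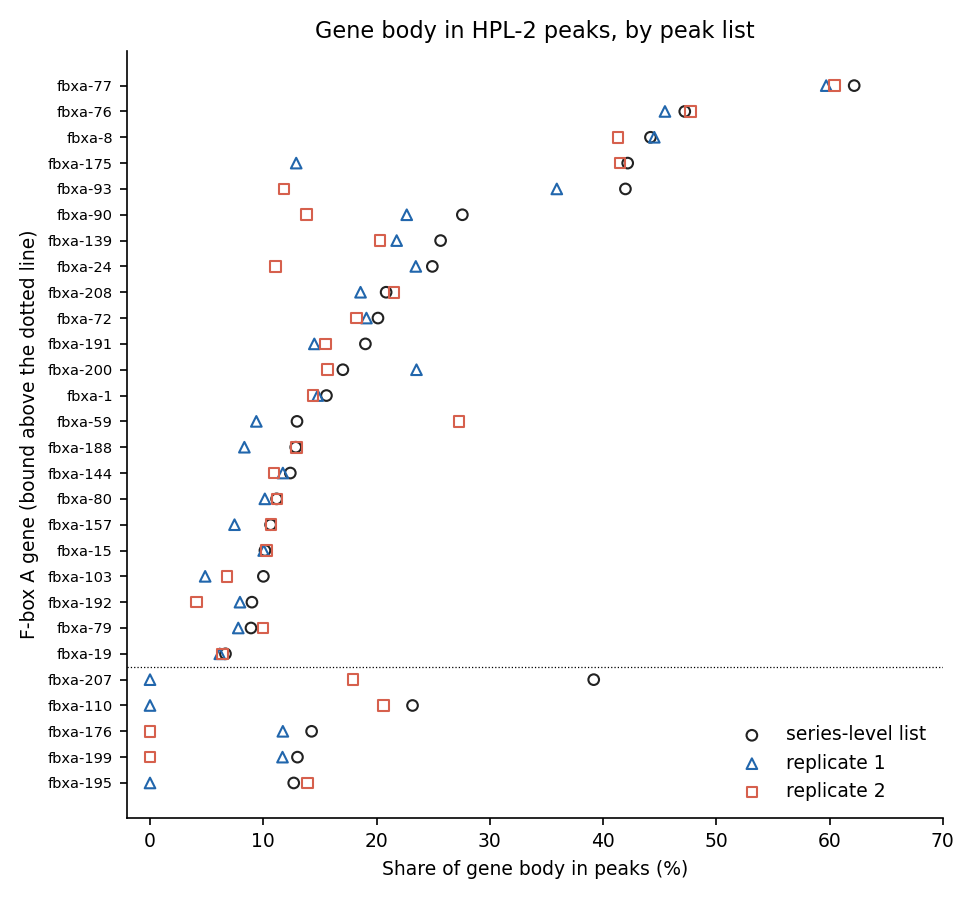
Percent of the gene body in HPL-2 peaks (linear axis) for the 23 bound F-box A genes and, under the dotted line, the 5 members not bound with the largest series-level share; circles are the series-level list, triangles replicate 1 and squares replicate 2. The symbols nearly coincide for fbxa-77, fbxa-76 and fbxa-8, and lie far apart for fbxa-175, fbxa-93 and fbxa-59.

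Some members had series-level peaks and missed the rule for lack of a peak in a replicate. Among members called not bound, the 5 with the largest series-level share were all on chromosome V. The pseudogenes fbxa-207 (39.2% of the body in series-level peaks, 17.9% in replicate 2) and fbxa-110 (23.2% and 20.6%), both of 1 group, had no peak on the body in replicate 1, nor did fbxa-195 (12.7% and 13.9%). In fbxa-176 (14.3% by the series-level list, 11.7% by replicate 1) and fbxa-199 (13.0% and 11.7%) replicate 2 had none. Counted over the family, 14 members had a body peak in the series-level list and replicate 1 but not in replicate 2, 6 in the series-level list and replicate 2 but not in replicate 1, 3 in the series-level list alone, 4 in replicate 2 alone (fbxa-168, fbxa-20, fbxa-69 and fbxa-53) and 1 in replicate 1 alone (fbxa-220). The same split over all genes is not given here, so these counts are not read as a trait of the family. Over all genes, too, replicate 1 had a body peak more often (25%) than replicate 2 (22.9%). Just outside the rule, fbxa-99 was strand-dependent with its nearest series-level peak 14 bp from the gene body.

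Several long members had no peak on the gene body in any list. Among members without such a peak that were called not bound, the 5 longest were fbxa-136 (6445 bp), fbxa-48 (5196 bp), fbxa-153 (4712 bp), fbxa-39 (4188 bp) and the pseudogene fbxa-187 (3697 bp). Their nearest series-level peaks were 1577, 9918, 6427, 4874 and 1458 bp away. In contrast, the longest member of the family, fbxa-192 (9856 bp), was bound through 4 series-level peaks that covered 9.0% of its body, with 7.94% in replicate 1 and 4.09% in replicate 2. Over all members the median distance to a series-level peak was 1769 bp. On the arms it was 1781 bp for members and 689 bp for other genes. The member farthest from a peak was fbxa-155, at 40396 bp.

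The members fbxa-158 and fbxa-75, which act with the cullin CUL-6 in the worm's intracellular pathogen response, were not bound, and no list had a peak on either gene body. The nearest series-level peak was 5953 bp from fbxa-158 and 2106 bp from fbxa-75. A group of 9 members on the left arm of chromosome II, from fbxa-161 to fbxa-160 and including fbxa-158, had no peak of any list within its span of 18.1 kb, whereas 12.3% of that arm lay in series-level peaks. Another group of 12 members on chromosome III, from fbxa-55 to fbxa-51, had 2.72% of its span in series-level peaks and 1 bound member, fbxa-59, whose share was 13.0% in the series-level list and 9.39% and 27.3% in replicates 1 and 2. In the third group of chromosome III, from fbxa-8 to fbxa-66 (17 members), 7.88% of the span lay in series-level peaks, and in the group of 11 from fbxa-44 to fbxa-90 on chromosome V it was 7.42%.

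Peaks on members had widths and scores near those of all peaks and were mostly contained in the gene. The 65 series-level peaks on member bodies had a median width of 230 bp and a median score of 13.4, and all 23530 peaks of that list had medians of 259 bp and 13.2. In replicate 1 the 50 member peaks had a median width of 218 bp (all peaks 258 bp) and a median score of 9.83 (all peaks 10.6). In replicate 2 the 42 member peaks were wider than all peaks in the median, at 245 and 231 bp, with median scores of 13.4 and 10.3. Of the 65 series-level peaks, 55 lay wholly inside a member, 4 also overlapped another gene and none touched 2 members. The midpoints of these 55 lay a median of 613 bp from the nearer gene end, with 8 within 250 bp of one. When peaks were merged over gaps of up to 1000 bp, 26 regions touched bound members, with a median width of 354 bp and a largest width of 4774 bp (at fbxa-191), and 18 of them lay inside 1 member.

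Around gene ends the family had fewer peaks than other arm genes on either side. At the ends themselves 2.07% of the ends of arm members lay in a series-level peak, against 7.23% for other arm genes. At 500 bp inside the gene the values were 5.78% and 10.6%, and at 250 bp outside it 7.60% and 12.5%. In replicate 1 the ends gave 1.61% and 6.20%, and in replicate 2 0.461% and 3.36%. At 2000 bp outside, the series-level values were closer together, at 8.29% and 9.90%, and in replicate 2 members (6.22%) were above other genes (5.78%). The dip at gene ends was present in both sets. Without strand, start and end of a gene could not be told apart.

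**Figure D4:**
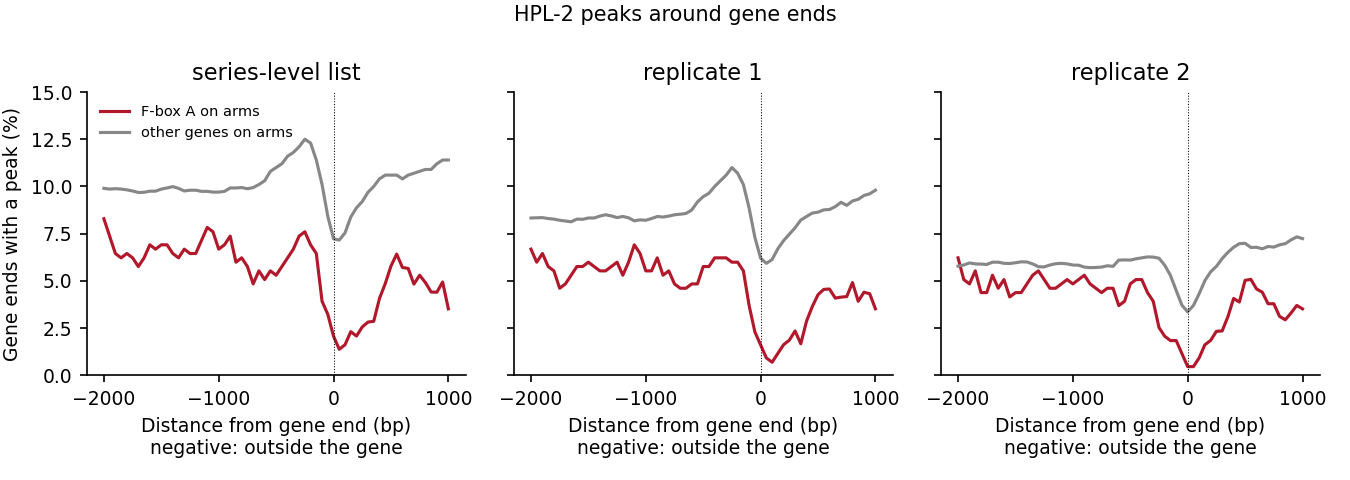
Percent of gene ends covered by an HPL-2 peak against the distance from the gene end in bp (0 is the end, negative values are outside the gene), for F-box A genes (red) and other genes (grey) on chromosome arms, in each peak list. Both curves dip at the gene end, to 2.07% and 7.23% in the series-level list, and the red curve runs below the grey one over the gene in all 3 lists.

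In related families the proportion of genes bound by the same rule was also under that of all genes, with no test of the difference. For F-box C this rested on replicate 2, and for the MATH and BATH genes it did not hold beside genes of similar length. The F-box B genes (5 of 113, 4.42%) and F-box C genes (4 of 56, 7.14%), which code for other F-box proteins, and the MATH and BATH genes (13 of 92, 14.1%), which code for proteins with a MATH domain, many of them adaptors of cullin 3 ligases, were counted by the same rule, with the same background of 17.6%. These families are short too, with median gene bodies of 1163, 1550 and 1596 bp, and were not split by length. Of other genes in the second length class 9.20% were bound, fewer than of MATH and BATH genes and more than of F-box B or C. On the arms 15.3% of MATH and BATH genes and 12.6% of other genes of that class were bound. In summed gene body bases, F-box A had 3.99% in series-level peaks, 3.03% in replicate 1 and 3.07% in replicate 2. F-box B had 1.48%, 1.32% and 0.366%, F-box C 4.89%, 4.38% and 1.41%, and the MATH and BATH genes 7.62%, 5.41% and 3.22%. The share in F-box A was thus nearly the same in both replicates, while the other families were lower in replicate 2. All genes together were also lower there, at 8.71% in replicate 1 and 5.82% in replicate 2. F-box A was therefore below all genes in both replicates, but by less in replicate 2. F-box C passed F-box A in 2 lists, series-level and replicate 1, and lay below it in replicate 2, so the order of these families depended on the library. Without the replicate 2 list, 30.4% of F-box C genes were bound, above the 25.6% of all genes, and with the series-level list only 35.7% were, against 30.2% of all genes.

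**Figure D5:**
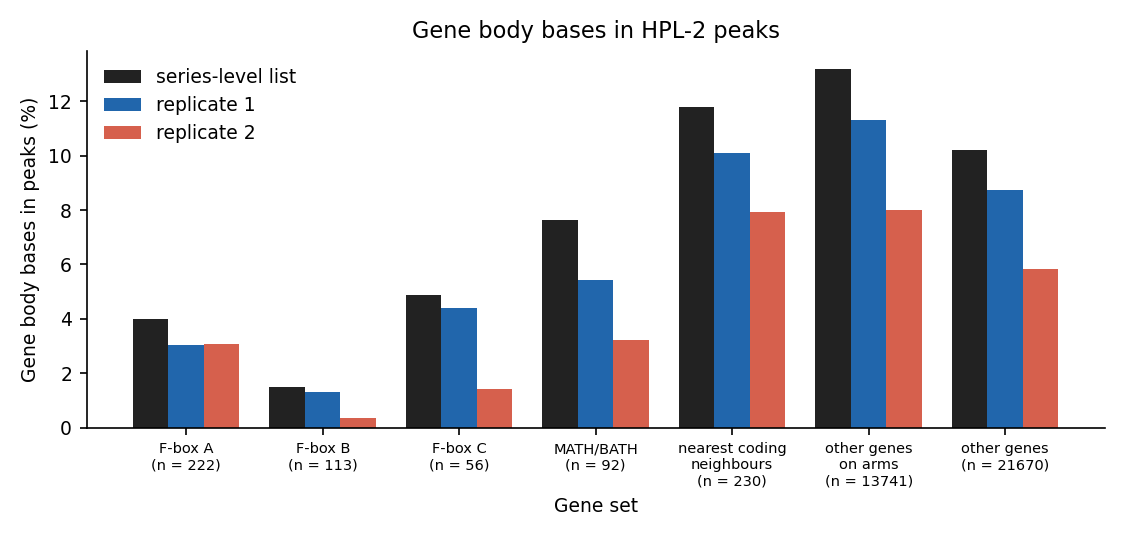
Percent of summed gene body bases in HPL-2 peaks (linear axis from 0) for F-box A, 3 related gene sets, the nearest coding neighbours of F-box A genes and all other genes, with 1 bar for each peak list. F-box A stands at 3.99, 3.03 and 3.07%, under the neighbours and other genes in each list.

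The genes of the SCF core and single F-box genes were counted by the same rule, with the background of 17.6%. Of the 25 SCF core genes measured (cul-1, cul-6, rbx-1, rbx-2 and 21 skr genes) 1 was bound, skr-18, which codes for a Skp1-related adaptor and had peaks at both flanks and none on its body. That is 4.0% of a set with a median gene body of 585 bp, and of other genes in the shortest length class 7.94% were bound. The cullin genes cul-1 and cul-6 had no peak on the gene body in any list. Of 8 single F-box genes with known functions, 2 (25%) were bound. They were dre-1, a heterochronic gene for developmental timing (37.3% of its 12878 bp body in series-level peaks, 35.7% in replicate 1 and 5.91% in replicate 2), and lin-23, the worm counterpart of beta-TrCP (8.28%, 4.87% and 6.13%). The FTH domain genes fog-2, which promotes spermatogenesis in hermaphrodites, and its close relative ftr-1 were not bound, with the nearest series-level peak 14170 and 15107 bp away.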

How the data were processed

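Peaks carry a deposited score each, used as given. MACS is named as caller and WS220 as genome per the file headers. Per the submitters' processing notes, the tool BWA and the build ce10 are named. Versions, thresholds, the control library, how replicates were combined and how reads matching several tandem copies were placed are not stated there, so peaks on near-identical members are uncertain. Gene names, biotypes and positions came from RefSeq WBcel235. Its table holds no strand, so the planned upstream rule was applied at both ends, shares were taken over the gene body, and 5' and 3' ends were not separated. Sequences of members were not used here.

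Overlaps were computed with Python 3.11.15, NumPy 2.4.6 and pandas 2.3.3. The code was tested on simulated peaks: all 21892 calls equalled a direct count, including 100 of 100 genes given a peak in every list. Named members were the 8 bound with the largest share, the 5 bound with the highest score and the 5 not bound with the largest share. To these were added the 5 longest not bound and without a body peak in any list, and the highest of the 4 largest groups. Any bound in centres (there were none), fbxa-158, fbxa-75 and bound partners were also named. Others were named after their values were seen. Members and lists were chosen with earlier results of these data known. Labels do not say whether replicates were separate cultures, so their spread may be technical. Alternatives covered padding, upstream length, lists required, score and overlap.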

Additional observations from a re-analysis of the deposited data

How the results depend on the processing

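The count of 23 bound members stayed within 1.5 times under 8 of 11 alternatives. It was 28 with 150 bp of padding, and 23 with 150 bp trimmed or with the gene body alone. It was also 23 with 1000 bp upstream and with at least 100 bp in peaks. It was 25 when the series-level peak at a gene had to overlap both replicate lists. In that setting replicate peaks did not have to reach the gene themselves, which added fbxa-204 and fbxa-205. With coding members only it was 18. All 23 had a body peak in each list, so the gene body alone or a longer upstream part could not lower the count. The strand-dependent count moved instead, from 20 to 15 when trimmed and 33 with 1000 bp upstream. With the gene body alone it was 0 by construction. The bound count moved to 48 with the series-level list only and to 14 for peaks at or above the median score. It ran from 29 to 39 without replicate 1 or replicate 2. Without replicate 2 it was 39 (17.6% of members, 25.6% of all genes), so replicate 2 set the count more than replicate 1. The proportion bound in members was below that of all genes in each of these settings. The median share of the body in peaks was 0 in all settings, for members and all genes. The mean share (3.30%) ran from 1.81% to 4.43%, the latter with 500 bp added at both sides, which was chosen after seeing the data. Bound neighbours (16.1%) ran from 19.6% to 24.8% without 1 replicate and were 18.8% with 2 neighbours a side. F-box C rose from 4 to 17 bound genes without replicate 2, and to 20 with the series-level list only. F-box B went from 5 to 9 and 12 in the same settings. No paired analysis was possible because only ChIP lists were analysed, and a number is shared only between a ChIP and an input library. The planned comparison of member sequences was not run. Peak lists hold no read counts, so occupancy under their unknown thresholds was not detectable.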
